A study of Cenchrus americanus with 9 samples.

Results

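The last 5 cm of crown roots were compared with the last 5 cm of the primary root in 15-day-old pearl millet plants. The comparison used 6 of the 9 RNA-seq libraries of the study, 3 of crown root tips and 3 of primary root tips, chosen by root type alone. All plants were of genotype Tift23DB, the inbred pearl millet line behind the reference genome, with no treatment, and were grown in rhizotrons, which are thin boxes of soil with a transparent face. Each library was made from roots of 3 plants pooled before RNA extraction, so plants within a library cannot be separated, and whether crown and primary root libraries share plants is not stated. The other 3 libraries, from lateral roots borne on the primary root, entered the contrast only through the estimate of the spread and are given as levels beside it. For these, no length of sampled root is given.

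The primary root of a cereal forms in the embryo, whereas crown roots arise after germination from the stem nodes and make up most of the root system of the adult plant. In rice and maize, loss of the LOB-domain proteins CRL1 and RTCS removes crown roots while the primary root still forms, so the root types differ in how they are initiated. Once formed, both grow from a tip with a root cap, a meristem, a zone of elongation and a zone where root hairs, endodermis and xylem mature. A 5 cm apex of each root holds all of these zones, and in bulk RNA a smaller share of one kind of cell and less RNA per cell cannot be told apart. The table identifies genes by Pgl_GLEAN number only and no annotation was used here, so marker genes of root tissues were not checked and most genes below carry no name or function.

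Values were normalised counts, that is counts of a gene in a library divided by 1 size factor for that library, for 19754 genes. The counts recovered from them summed to 49026933 to 55457911 in crown root tips and to 39739052 to 58752339 in primary root tips, so depth overlapped between the tip types. Pearson's r on log2(normalised count + 1), taken across genes, was 0.952 to 0.963 among crown root libraries and 0.954 to 0.963 among primary root libraries, against 0.902 to 0.948 between the tip types. Primary root replicate 2 stood furthest from the crown root libraries, with r of 0.902, 0.924 and 0.936 to crown root replicates 1, 2 and 3, against 0.928 to 0.948 for the other primary root libraries. The median standard deviation of a gene over replicates was 0.29 in crown root tips and 0.21 in primary root tips on the log2 scale. Genes listed at 0 numbered 302 to 398 in crown root libraries and 162 to 311 in primary root libraries.

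Of the 19754 genes, 313 differed between crown and primary root tips, which is 1.58% of those tested. The test was limma on log2(normalised count + 1) with all 9 libraries in the fit, and a gene was called at a Benjamini-Hochberg adjusted p under 0.01 together with a log2 fold change of 1 or more in either direction. More genes were lower than higher in crown root tips. There were 79 genes higher in crown root tips (0.400% of all genes) and 234 lower (1.18%). Before the test on the spread, 859 genes had a log2 fold change of at least 1 and 1620 of -1 or below. A further 43 genes passed the adjusted p with a smaller fold change, 31 of them higher and 12 lower in crown root tips. Over the whole table, log2 fold changes had 5% and 95% points of -1.43 and 0.92, around a median of -0.02. The size factors bring the middle gene level between libraries, so this median follows from the scaling and is not a result. With libraries scaled to equal totals it was -0.20. The 3 crown libraries lay apart from the 3 primary libraries in all of the 313 called genes, as did 29.3% of all genes, 15.1% with crown above primary and 14.2% with crown below. The thresholds favour such separation, so it adds nothing to the calls.

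**Figure D1:**
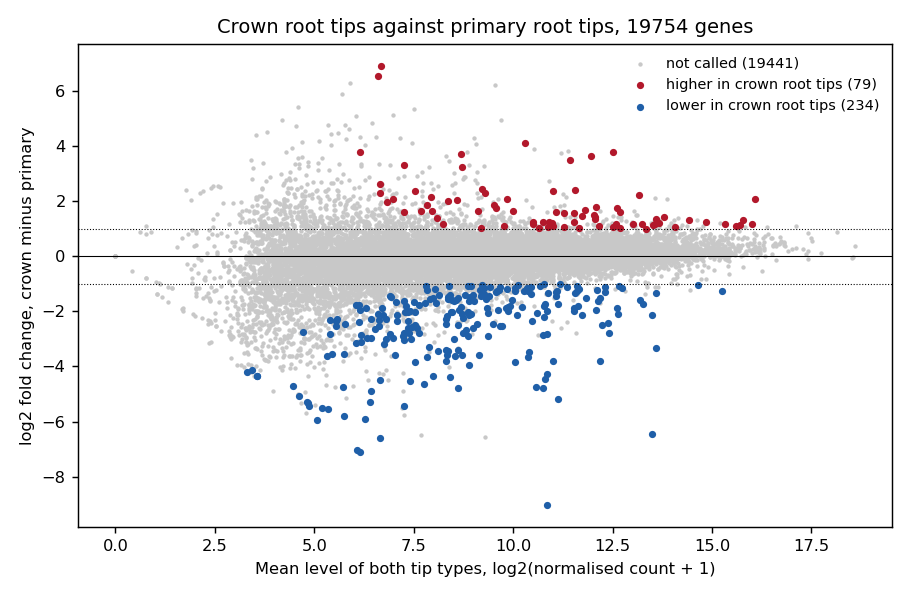
Each point is 1 gene, with the mean level of crown and primary root tips on the x axis, as log2(normalised count + 1), and the log2 fold change, crown minus primary, on the y axis. Dotted lines mark log2 fold changes of 1 and -1. The 79 genes higher and the 234 genes lower in crown root tips are coloured, and the called falls reach -9.03. Points of genes listed at 0 in all libraries of one tip type depend on the pseudocount of 1.

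The falls were larger than the rises. Among the 234 genes lower in crown root tips, 102 fell by 1 to 2 on the log2 scale, 70 by 2 to 3, 28 by 3 to 4 and 34 by more than 4. Of the 79 genes higher in crown root tips, 55 lay between 1 and 2, 14 between 2 and 3, 7 between 3 and 4 and 3 above 4. In the most extreme classes, 13 of the 34 falls and 1 of the 3 rises were of genes listed at 0 in all 3 libraries of one tip type, whose fitted fold change depends on the pseudocount of 1. The median level of the called falls was 148 normalised counts in crown root tips and 651 in primary root tips, and that of the called rises was 3406 in crown root tips and 1066 in primary root tips. The median gene of the whole table had 620 and 633. Lateral roots entered the fit through the spread, and so had a part in which genes were called, but not through the fold change. In them the median was 1547 for the called falls and 525 for the called rises, against 682 for all genes.

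The called genes at 50 or more normalised counts in both tip types numbered 71 among the rises and 158 among the falls. Of these the 2 with the most negative and the 2 with the most positive log2 fold change are given in full. Pgl_GLEAN_10005675 had 34.5, 624 and 404 normalised counts in crown root tips, against 10139, 44572 and 13438 in primary root tips. All crown libraries lay far under the lowest primary library, and the libraries of each tip type also differed among themselves, with crown root replicate 1 the lowest and primary root replicate 2 the highest. The ratio of means was 64.2 in favour of primary root tips, and the log2 fold change was -6.46 ± 0.901 (standard error; limma adjusted p = 0.00361). In lateral roots the gene reached 277874, 177241 and 268024, a mean above that of 99.98% of all genes. Pgl_GLEAN_10026856 had 51.2, 60.9 and 409 normalised counts in crown root tips, against 2613, 6412 and 3826 in primary root tips. Crown root replicate 3 was the highest of the crown libraries and still lay well under all primary libraries. Means differed 24.7-fold, and the log2 fold change was -5.19 ± 0.645 (standard error; limma adjusted p = 0.00214), and lateral roots had 11281, 10658 and 7839.

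The steepest fall of all called genes, Pgl_GLEAN_10015686, lay under that minimum in crown root tips and was singled out after its values were seen. It had 8.36, 0 and 10.8 normalised counts in crown root tips, against 1513, 8254 and 1248 in primary root tips. The log2 fold change was -9.03 ± 0.921 (standard error; limma adjusted p = 0.000718), and it ran from -9.67 to -7.33 over the alternatives, with an adjusted p of up to 0.194 for voom on the recovered counts. In lateral roots the same gene had 58234, 21429 and 36612.

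On the side of the rises, Pgl_GLEAN_10008725 had 2661, 2166 and 2209 normalised counts in crown root tips, against 56.5, 114 and 378 in primary root tips. The crown libraries lay close together, and the spread was among the primary libraries, of which replicate 3 was the highest. Means differed 12.8-fold, and the log2 fold change was 4.10 ± 0.589 (standard error; limma adjusted p = 0.00406). Lateral roots had 372, 176 and 122, within the range of the primary root libraries. Pgl_GLEAN_10014440 had 18013, 5838 and 8740 normalised counts in crown root tips, against 766, 723 and 648 in primary root tips. Here the primary libraries lay close together and crown root replicate 1 was over 2 times as high as either other crown library. Means differed 15.3-fold, and the log2 fold change was 3.77 ± 0.581 (standard error; limma adjusted p = 0.00505), and lateral roots had only 50.9, 7 and 15.6.

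For each of these 5 genes the exact two-sided permutation test on the 6 tip libraries gave p = 0.1, the smallest that 3 against 3 allow. All 5 had their crown libraries apart from their primary libraries, which fixes this p, so it adds nothing to the calls. The direction held in all alternatives, but the call did not. The alternatives with an adjusted p of 0.05 or no minimum fold change loosen the reported fit and call these genes by construction. Without primary root replicate 2 the adjusted p (limma, Benjamini-Hochberg) was 0.0168 for Pgl_GLEAN_10005675, 0.0109 for Pgl_GLEAN_10026856, 0.0196 for Pgl_GLEAN_10008725 and 0.0222 for Pgl_GLEAN_10014440, all past the limit of 0.01. Of the 22 alternatives, 18 called Pgl_GLEAN_10005675 (limma, edgeR or DESeq2 adjusted p of 6.81e-11 to 0.0267), 19 called Pgl_GLEAN_10026856 (5.36e-06 to 0.0212), 15 called Pgl_GLEAN_10008725 (2.03e-05 to 0.0213), 14 called Pgl_GLEAN_10014440 (6.61e-06 to 0.0259) and 20 called Pgl_GLEAN_10015686.

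**Figure D2:**
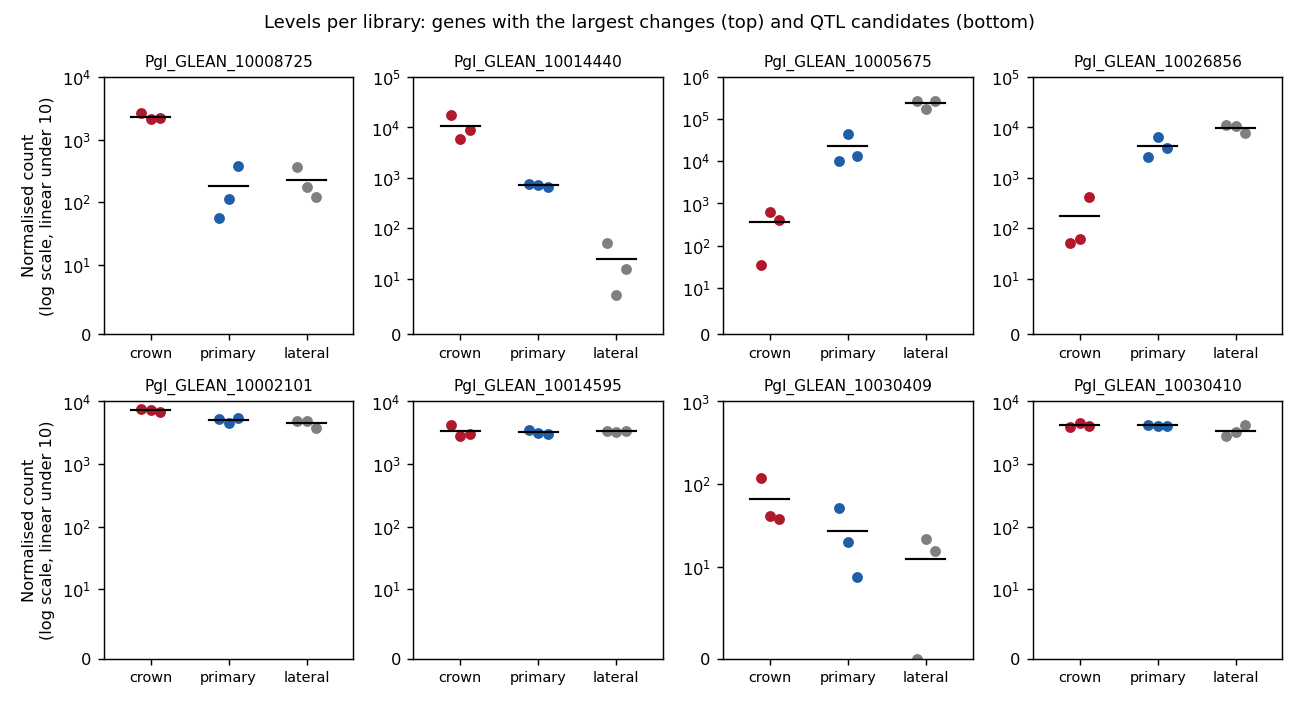
Points are single libraries and bars the means of 3, in normalised counts on a log scale that is linear under 10, for crown root tips, primary root tips and lateral roots. In the upper row, the crown libraries of Pgl_GLEAN_10008725 and Pgl_GLEAN_10014440 lie above all primary libraries and those of Pgl_GLEAN_10005675 and Pgl_GLEAN_10026856 below them. In the lower row, of the candidate genes of leaf ion loci, Pgl_GLEAN_10002101 alone has its crown and primary libraries apart.

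Some transcripts were listed in one tip type only. With at least 30 normalised counts in every library of the other tip type, 4 genes were at 0 in all 3 crown root libraries and 1 gene in all 3 primary root libraries. These were named after their values were seen. They were picked for this separation, so their adjusted p and the calls below add nothing to it. Libraries at 0 show no spread among themselves, and the fit then depends on the pseudocount of 1. Pgl_GLEAN_10036071 was at 0 in all crown root libraries, against 159, 117 and 142 normalised counts in primary root tips (limma adjusted p = 3.07e-05). Its lateral root libraries held 931, 829 and 512. Pgl_GLEAN_10035424 was at 0 in crown root tips, against 43.0, 101 and 52.1 in primary root tips (limma adjusted p = 0.000213). The primary root libraries of Pgl_GLEAN_10005262 held 169, 89.2 and 141, again with 0 in all crown root libraries (limma adjusted p = 0.000651). These 3 genes were called as lower in crown root tips. Pgl_GLEAN_10038592, also at 0 in crown root tips, had 50.6, 73.0 and 35.6 in primary root tips and did not pass (limma adjusted p = 0.0227). In the other direction, Pgl_GLEAN_10023339 had 469, 33.5 and 107 in crown root tips, was at 0 in all primary root libraries and was called as higher (limma adjusted p = 0.00856). Its level in crown root tips rested mostly on replicate 1, and only 5 of the 22 alternatives called it, with an adjusted p (limma, edgeR or DESeq2) of 0.00148 to 0.185. Those with an adjusted p of 0.05 or no minimum fold change call every gene of the reported fit by construction. The 3 called genes at 0 in crown root tips were called in 20 or 21 of the 22 alternatives, and Pgl_GLEAN_10038592 in 3. Over the alternatives the adjusted p (limma, edgeR or DESeq2) reached 0.0276 for Pgl_GLEAN_10036071, 0.0447 for Pgl_GLEAN_10035424 and 0.0293 for Pgl_GLEAN_10005262.

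A listed 0 can be a failed estimate, and no fold change is given for these genes. In 35 genes 1 crown root library was at 0 while the other 2 had at least 30 normalised counts, and 31 genes showed this in primary root tips. Without a minimum in the other tip type, 33 genes were at 0 in all crown libraries and above 0 in all primary libraries, of which 13 were called, against 8 genes at 0 in all primary libraries and above 0 in all crown libraries, of which 1 was called.

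On the deposited scale, the median fold change differed between genes with low and with high counts. Genes were ranked by their mean over both tip types and cut into 10 groups of 1975 or 1976 genes, from group 1 with the lowest level to group 10 with the highest. Counts were not divided by gene length, so this order reflects length as well as expression. The median of the log2 fold changes, crown minus primary and called or not, was -0.42 in group 1, -0.13 in group 3, -0.04 in group 5, 0.02 in group 8 and 0.15 in group 10. Group 10 was thus 0.57 above group 1 and 0.28 above group 3. The spread was also uneven, with an interquartile range of 1.75 in group 1 and 0.41 in group 10. Group 1 lay near the floor, with means of at most 35.6 normalised counts. The medians by group were not repeated with equal totals or quantile normalisation.

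The called rises lay mainly among highly counted genes. Group 10 held 24 of the 79 genes higher in crown root tips and 12 of the 234 lower, that is 1.21% and 0.607% of its 1976 genes. In group 3, with means of 98.6 to 204 normalised counts, 8 genes were higher and 39 lower, and in group 1, 0 were higher and 12 lower. The excess of rises in group 10 depended on the scale of the libraries, since it turned round with equal totals, where 11 genes were higher and 21 lower there, and with quantile normalisation, where 6 were higher and 20 lower. It also turned round in 5 other alternatives, in which group 10 held 4 rises and 7 falls without crown root replicate 2, 2 rises and 6 falls without primary root replicate 1, 0 rises and 4 falls without primary root replicate 2, 2 rises and 4 falls with only the tip libraries fitted, and 0 rises and 1 fall without the mean-variance trend. In the remaining alternatives rises outnumbered falls there, with 9 rises and 3 falls without primary root replicate 3 and, at the closest, 10 rises and 9 falls without lateral root replicate 2.

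**Figure D3:**
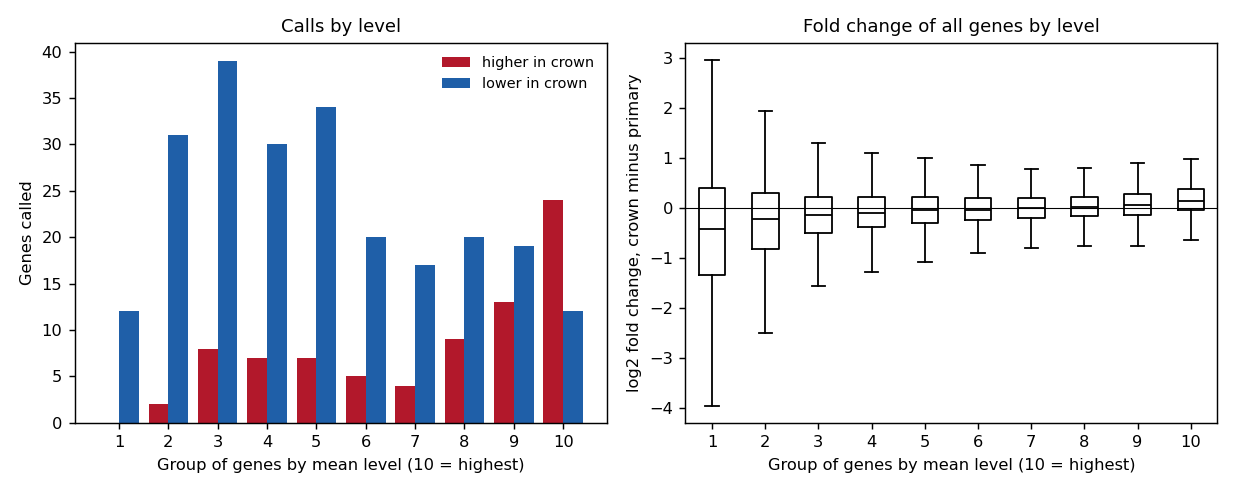
The left panel counts the genes called as higher or lower in crown root tips in each of the 10 groups by mean level, and the right panel shows the log2 fold change of all genes in each group, as median, quartiles and whiskers to 1.5 interquartile ranges. Calls of lower genes are most frequent in group 3 (39), calls of higher genes in group 10 (24, an excess that turned round with equal totals and quantile normalisation), and the median fold change moves up with level.

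Library totals differed in the same direction as the highly counted genes. They are sums of the same normalised counts, so they restate that lean and are no separate observation. Crown root libraries summed to 57967565, 55869460 and 52916036 normalised counts, against 49541518, 47180332 and 50460211 in primary root libraries. The totals did not overlap and their means differed 1.13-fold (p = 0.1 in an exact permutation test, two-sided, again the smallest possible). Size factors of this kind bring the median gene level with the others and leave totals free. The 100 most abundant genes took 21.0%, 18.9% and 18.1% of the total in crown root tips, with a mean of 19.3 ± 1.48% (SD, n = 3), against 17.3%, 15.4% and 17.3% in primary root tips, with a mean of 16.6 ± 1.11% (SD, n = 3; exact permutation test, p = 0.1). The shares of a library do not depend on its size factor. These 100 genes accounted for 39.8% of the net difference in totals, and the first 1000 for 81.5%. The first 1000 held on average 53.4% of the total in crown root tips and 49.7% in primary root tips.

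On the deposited scale, most of the 100 most abundant genes leaned towards crown root tips. Genes were ranked by the mean of both tip types, so crown values had a part in the choice. The crown mean was above the primary mean in 93 of the 100 and in 808 of the 1000 most abundant genes. The share over all genes was not counted. Their median log2 fold change was -0.02 on this scale, so most of all genes did not lie above 0. All crown libraries lay above all primary libraries in 57 of the 100 and below them in 0, against 15.1% and 14.2% of all genes. The counts of 93 and 57 are on the deposited scale and were not repeated with equal totals. Of the 100, 5 were called as higher in crown root tips, against 0.400% of all genes, and 0 as lower, against 1.18%. The median log2 fold change of these 100 genes was 0.38, under the minimum of 1. With equal totals the median of all genes moved to -0.20, against -0.02 on the deposited scale. The single most abundant gene, Pgl_GLEAN_10032396, named after its values were seen, had 514563, 472893 and 368515 normalised counts in crown root tips, against 364555, 304931 and 370133 in primary root tips. The libraries overlapped and the gene was not called, and its log2 fold change was 0.37 ± 0.213 (standard error; limma adjusted p = 0.318).

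**Figure D4:**
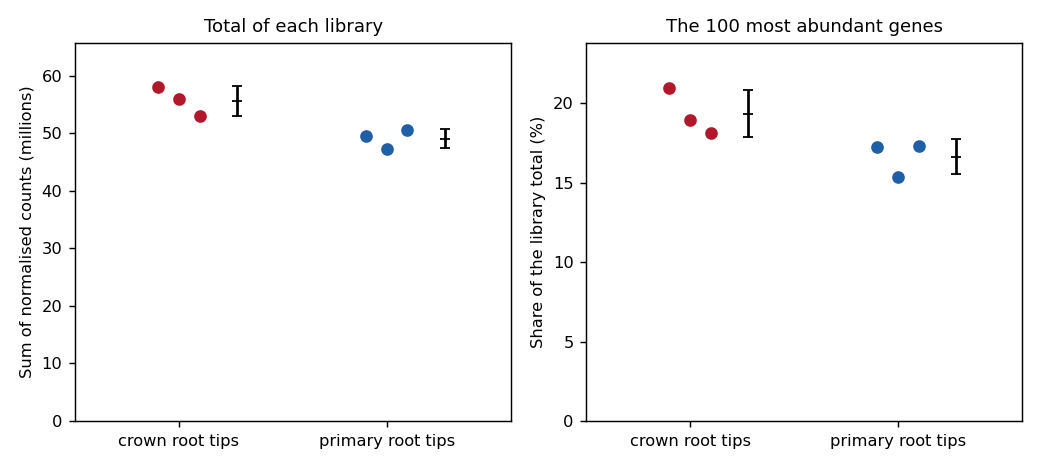
The left panel gives the sum of normalised counts of each library (axis in units of 1e6) and the right panel the share of that sum held by the 100 most abundant genes, with points for libraries and, beside them, the mean ± SD of 3. Crown root libraries lie above primary root libraries in both panels, with shares of 18.1% to 21.0% against 15.4% to 17.3%.

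The study named 4 annotated genes as candidates at loci associated with leaf ion content, and none of them was called between crown and primary root tips. Pgl_GLEAN_10002101, at a locus for leaf potassium, encodes a homologue of the Arabidopsis plasma membrane protein Expp1, whose function is unknown. It had 7702, 7227 and 6670 normalised counts in crown root tips, against 5269, 4464 and 5503 in primary root tips. All crown libraries lay above all primary libraries, with means of 7200 ± 517 and 5079 ± 545 (SD, n = 3 each). The difference was small, at a log2 fold change of 0.51 with a 95% interval of 0.19 to 0.82, that is 1.14 to 1.76-fold, and missed the threshold (limma adjusted p = 0.056; exact permutation test, p = 0.1). Over the alternatives the adjusted p (limma, edgeR and DESeq2) ran from 0.0129 to 0.212, the highest without primary root replicate 2.

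The other candidates of these loci had overlapping libraries. Pgl_GLEAN_10014595, a putative E3 ubiquitin-protein ligase at another potassium locus, had 4180, 2789 and 3028 normalised counts in crown root tips, against 3510, 3167 and 2981 in primary root tips. Its log2 fold change was 0.03 with a 95% interval of -0.31 to 0.37 (limma adjusted p = 0.93). Pgl_GLEAN_10030410, at a cadmium locus and homologous to an Arabidopsis protein of the Golgi apparatus, had 3926, 4569 and 4107 in crown root tips, against 4259, 4086 and 4122 in primary root tips. The log2 fold change was 0.01, with a 95% interval of -0.33 to 0.35 (limma adjusted p = 0.971). Both intervals lie well inside the minimum log2 fold change of 1 used for calls, and both fold changes are negative with equal totals and with quantile normalisation.

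Pgl_GLEAN_10030409, at the same cadmium locus and with homology to glycosyltransferases, was counted far less often. It had 119, 41.6 and 37.8 normalised counts in crown root tips, against 51.4, 20.3 and 8.89 in primary root tips. Replicate 1 was the highest library of both tip types, and the groups overlapped. The log2 fold change of 1.39 had a 95% interval of -1.11 to 3.89 (limma adjusted p = 0.497), so that neither a change of several-fold nor its absence could be told with this spread among 3 replicates.

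Single libraries often held the extreme values of the called genes. Among the 79 genes higher in crown root tips, crown root replicate 1 was the highest crown library in 67, against 45.4% of all genes, while replicates 2 and 3 were the highest in 5 and 7. Primary root replicate 2 was the lowest primary library in 49 of these 79 genes, against 34.3% of all genes. For the 234 genes lower in crown root tips, primary root replicate 2 was the highest primary library in 125, against 36.7% of all genes, and crown root replicate 1 the lowest crown library in 102, against 36.2% of all genes. Over the whole table, the r of 0.902 between these libraries was the lowest of all crown and primary pairs. What sets them apart was not tested.

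The number of called genes depended on the libraries and on the model, and the excess of lower over higher genes held in all of the settings tried. Leaving out primary root replicate 1, 2 or 3 gave 129, 96 and 121 genes, and leaving out crown root replicate 2 or 3 gave 145 and 194. Leaving out lateral root replicate 2 or 3, which are no part of the contrast but share in the spread, gave 153 and 174. When only the 6 tip libraries were fitted, 50 genes passed, 10 higher and 40 lower, and 49 of these were among the 313. The share of called genes that were higher in crown root tips was 25.2% as reported and 13.1% with equal totals, and ran from 13.1% to 39.5% over all alternatives.

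Count models on the recovered counts gave numbers on either side. Whole counts were recovered for 100% of the values, to within 0.1 of a count. The edgeR quasi-likelihood test called 248 genes, 59 higher and 189 lower, and 247 of them were among the 313. DESeq2, the study's own method, called 897 genes at the same thresholds, 301 higher and 596 lower, which included 312 of the 313. A core of 4 higher and 28 lower genes was called by the reported fit and by each of the 10 alternatives that kept all libraries and both thresholds. With each of the 6 tip libraries left out in turn, 6 higher and 65 lower genes were called by the reported fit and in all of these fits.

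**Figure D5:**
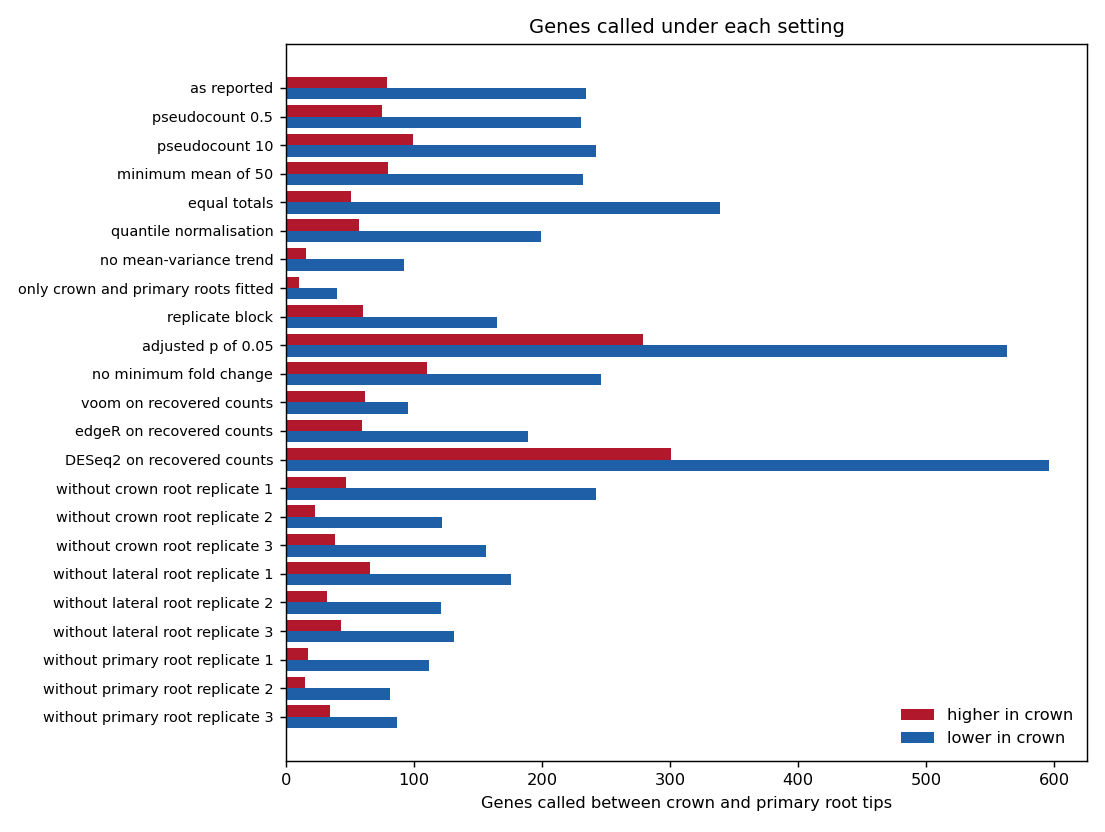
Bars give the number of genes called as higher or lower in crown than in primary root tips as reported and under each alternative. Lower genes outnumber higher genes in all settings shown, from 10 against 40 with only the tip libraries fitted to 301 against 596 with DESeq2.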

How the data were processed

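RNA of 9 libraries was sequenced by an external provider on an Illumina platform. After read cleaning in cutadapt 3.1, the authors used HISAT2 2.0.1 for mapping to the assembly ASM217483v2, StringTie 1.3.4 for transcript assembly guided by annotated genes, and DESeq2 for normalisation of gene counts, with a minimal sum of 90 per gene. The deposited values are thus a signal in normalised counts, 1 size factor per library, not divided by gene length. How reads were assigned to genes is not stated in the paper or the labels. Columns were assigned by the names in the sample descriptions, with 0 left unassigned.

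Whole counts were recovered as multiples of 1 step per library. Multiples of 4 are over-represented among low counts, so a count may not be a read, and counting intervals are left out. Depth was 39739052 to 64062081 recovered counts, and precision rests on 3 replicates per root type, whose p-values measure the spread between pools of plants.

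Tests used limma 3.58.1 (R 4.3.3) on log2(value + 1) with a mean-variance trend, 9 libraries, no block and Benjamini-Hochberg adjustment over 19754 genes, with the thresholds of the study's methods, and exact permutation tests (scipy 1.17.1). Fold changes on this scale understate changes of low genes. The code was tested on simulated counts. Alternatives included pseudocounts, scaling, filters, voom, edgeR 4.0.16, DESeq2 1.42.0 and left-out libraries. The contrast, the thresholds and the rule for named genes (the 4 candidates, and the 2 largest rises and 2 largest falls among called genes with separate libraries and means of at least 50 in both tips) were chosen with earlier results of these data known. The split into 10 level groups and the genes listed at 0 were described after the values were seen. Gene lists by function and tissue markers were planned for annotated genes and not used here.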

Additional observations from a re-analysis of the deposited data

How the results depend on the processing

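The direction of the excess, more genes lower than higher in crown root tips, held in all 22 alternatives, and the number of genes did not. Without the mean-variance trend 108 genes were called, 16 higher and 92 lower, and with only the tip libraries fitted 50, 10 higher and 40 lower. An adjusted p of 0.05 gave 842, 279 higher and 563 lower, voom on recovered counts 157, with 95 lower, and DESeq2 897, 301 higher and 596 lower. With equal totals 51 genes were higher. With 1 library left out at a time, the count ran from 96 to 289 for all genes called, from 15 to 66 for higher and from 81 to 242 for lower genes. The cause of these shifts was not tested.

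With 10 in place of 30 normalised counts required in the other tip type, 17 genes were at 0 in all crown root libraries and 7 in all primary root libraries. The fold changes of 2 candidate genes near 0 changed sign. That of Pgl_GLEAN_10014595 was -0.15 with equal totals and -0.032 with quantile normalisation, and -0.14 to 0.15 with 1 library left out. That of Pgl_GLEAN_10030410 was -0.17 with equal totals and -0.078 with quantile normalisation, and -0.049 to 0.060 with 1 library left out.

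Same-numbered replicates are not said to share plants, so the numbers were not taken as pairs. Deviations of same-numbered libraries from the means of crown and primary root tips correlated at 0.158, -0.0693 and -0.0810. Libraries of unlike number gave -0.189 to 0.248. With 3 libraries per tip type these values are tied to each other, so they cannot decide whether plants were shared. With the replicate block 225 genes were called, 60 higher and 165 lower, of which 199 were among the 313 reported.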

Other observations

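Called genes tended to carry identifiers close to those of other called genes. Of the 234 genes lower in crown root tips, 32 (13.7%) had another such gene within 3 identifier numbers, against 743 of the other 19520 genes (3.81%). Of the 79 genes higher in crown root tips, 6 (7.59%) had another such gene within 3 numbers, against 282 of the other 19675 genes (1.43%). This was noticed after the values were seen and is given as a count with no test. Positions and sequences of the genes were not used here, so whether such genes are neighbours or near-identical copies that share reads was not tested.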
